A study of Mus musculus with 6 samples.

Results

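Zfp genes form one of the largest groups of DNA-binding and RNA-binding proteins in the mouse. The members described here were the rows of the deposited liver RNA-seq table whose symbol is Zfp followed by a number and whose base mean was at least 50. Base mean is the normalised read count averaged over all livers. Of 27179 rows, 374 matched the symbol, and 251 of these passed the level and were the members; 123 did not. The members were thus chosen by their measured level, so that level is given here as a description only. All 251 had an adjusted p in the table and a RefSeq gene with the same symbol.

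Livers came from 3 LSD1-LKO mice and 3 Control mice of the C57BL/6 strain. LSD1-LKO mice were LSD1-lox/lox animals given AAV8-TBG-cre by tail vein at 6 to 7 weeks of age. Control mice carried the same floxed alleles and received AAV8-TBG-GFP at that age. Both groups then received high fat food, which lasted 12 weeks according to the series description, whereas the methods of the study give a shorter time. The TBG promoter is active in hepatocytes, so the deletion is aimed at these cells, and RNA came from whole liver enriched for poly-A RNA. The table holds 1 comparison and no value per liver, so the livers themselves cannot be shown, and each fold change is given with the standard error (SE) of the DESeq2 fit over 3 LSD1-LKO and 3 Control livers. The labels do not say how the mice were matched, and a lower share of a cell type cannot be told apart from less RNA per cell.

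Most Zfp proteins bind DNA through tandem C2H2 fingers, in which a pair of cysteines and a pair of histidines hold a zinc ion. Many carry a KRAB domain, which recruits the corepressor Trim28 and, with it, the histone methyltransferase Setdb1 to silence transposons and other targets. A SCAN domain lets some of these proteins pair with each other. A few Zfp proteins instead have CCCH fingers and bind RNA, as in the Zfp36 family, which brings the CCR4-NOT deadenylase to AU-rich mRNAs. LSD1, encoded by Kdm1a, removes methyl groups from lysine 4 of histone H3 and acts with CoREST.

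Kdm1a had a log2 fold change of −1.50 ± 0.16 (SE) in LSD1-LKO over Control livers, a fall of 64.6% (DESeq2 adjusted p = 1.32e-19). This fixed the direction in which the table was read, since it does not name its numerator. Of the marker lists, 0 of 8 Kupffer cell, 0 of 8 endothelial, 0 of 8 stellate, 0 of 8 cholangiocyte and 0 of 3 tested neutrophil markers passed the adjusted p of 0.05. The endothelial list nevertheless had 7 of 8 markers below 0, with a median log2 fold change of −0.19, and 2 of them, Kdr and Cdh5, had an unadjusted p under 0.05. The medians of the Kupffer cell, stellate and cholangiocyte lists were 0.01, 0.10 and −0.01. Among hepatocyte markers 1 of 8, Cyp2e1, was lower, and among lymphocyte markers 1 of 8, Cd4, was higher (log2 fold change 1.39 ± 0.20). The part of these shifts in the results below was not tested.

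In LSD1-LKO livers, 24 of the 251 members, or 9.56%, passed a DESeq2 adjusted p of 0.05, with 16 higher and 8 lower. Across all 14257 genes tested, 18.2% were called, 12.3% higher and 5.93% lower. Across the 10596 genes with a base mean of at least 50, 21.1% were called, 13.4% higher and 7.76% lower. The shares of members, 6.37% higher and 3.19% lower, were below the background in each direction, with no test of the difference. Recentring all folds on the median of genes with a base mean of at least 200 moved the split of members to 21 higher and 5 lower. Over all genes tested the split moved to 1994 higher and 573 lower.

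The median log2 fold change of the members was 0.01, with quartiles of −0.14 and 0.18, against −0.03 for all genes with a base mean of at least 50. Fold changes of members ran from −0.72 to 1.55, whereas all genes tested reached 4.76. Only 2 members, Zfp9 and Zfp251, were called and at least doubled, and 0 were called and at most halved. Of the 227 members not called, all 227 had a 95% interval within 1 of 0 on the log2 scale, and 141 had one within 0.5 of 0. The deposited folds are shrunken, and the largest SE was 0.26 in members and 0.28 in all genes tested. An interval within 1 was thus nearly fixed in advance for an uncalled member and does not measure how little it changed.

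**Figure D1:**
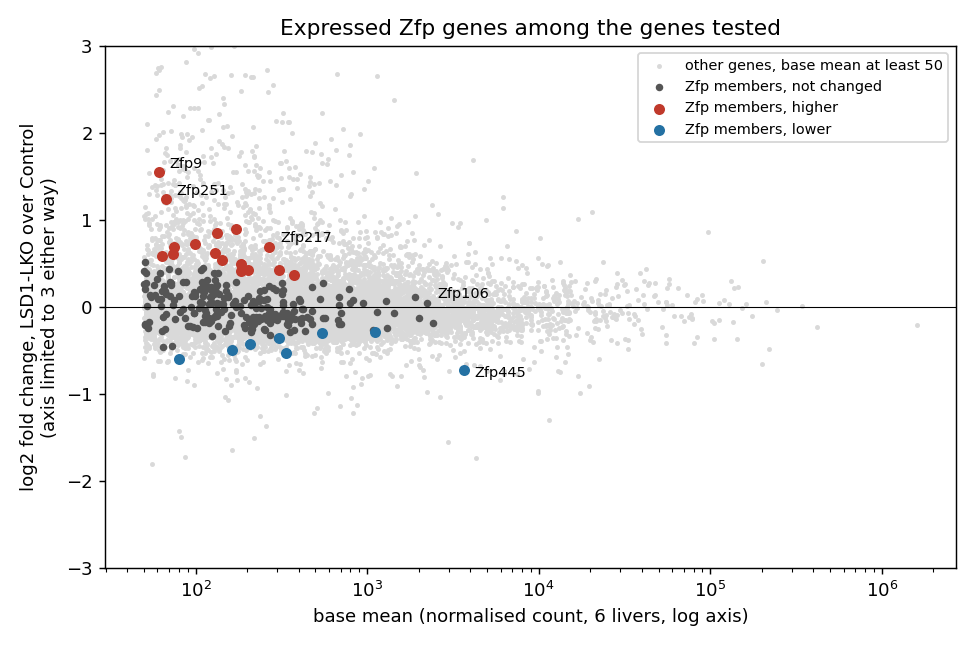
Base mean (log axis) against the log2 fold change of LSD1-LKO over Control for the 251 members (dark and coloured points) and the other genes with a base mean of at least 50 (pale points). Red members were higher and blue members lower at an adjusted p under 0.05, and Zfp445 stands apart as the member of the highest base mean and the lowest fold change.

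The changed members with the largest rise were KRAB proteins. Zfp9 had a base mean of 61.2 and a log2 fold change of 1.55 ± 0.23 (SE), the highest of the members (DESeq2 adjusted p = 2.48e-10). Zfp251 followed at 1.24 ± 0.22 with a base mean of 66.9 (adjusted p = 2.03e-07). Zfp810 rose by a log2 fold change of 0.90 ± 0.16 (adjusted p = 6.30e-07) and Zfp788 by 0.85 ± 0.17 (adjusted p = 8.59e-06). Zfp9 and Zfp251 have 12 and 11 C2H2 fingers, and the lower 95% bound of Zfp9, 1.11, lay above a doubling.

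Zfp217 rose by a log2 fold change of 0.69 ± 0.14 at a base mean of 268.9 (DESeq2 adjusted p = 1.36e-05). Its human counterpart ZNF217 was purified with complexes that contain LSD1 and CoREST. Zfp862-ps, annotated as a pseudogene, rose by 0.72 ± 0.19, and the KRAB gene Zfp169 by 0.69 ± 0.20. Zfp324, Zfp128, Zfp821, Zfp329 and Zfp385a had log2 fold changes between 0.49 and 0.62. The other 4 members that rose, Zfp612, Zfp703, Zfp870 and Zfp275, had values between 0.37 and 0.43. Zfp703, a corepressor whose human counterpart is amplified in luminal breast tumours, rose by 0.42 ± 0.16 (adjusted p = 0.0397).

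Zfp445 had the lowest fold change of the members and also the highest base mean. This KRAB and SCAN protein maintains DNA methylation at imprinted regions in mice. Its base mean was 3673, and its log2 fold change was −0.72 ± 0.13 (SE), a fall of 39.5% with a 95% interval of −0.98 to −0.46 (DESeq2 adjusted p = 1.04e-06). Per kb of the transcript that encodes its longest protein, the base mean of Zfp445 was 1240, the highest of the members, followed by Zfp970 at 819.3, Zfp207 at 733.6 and Zfp36l1 at 638.7. That transcript of Zfp445 has 2961 bases for a protein of 986 residues, so it is nearly all coding sequence. Other members were divided by transcripts with long untranslated parts, such as Zfp106 with 9085 bases for 1888 residues. The values per kb are therefore not a like comparison of abundance. Zkscan7, whose annotated extent in RefSeq meets the 5′ end of Zfp445, also fell, by 0.48 on the log2 scale (adjusted p = 0.00959).

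The other 7 members that fell had smaller or less certain changes. Zfp661 had a log2 fold change of −0.60 ± 0.19, Zfp629 of −0.52 ± 0.13 and Zfp770 of −0.49 ± 0.16. Zfp800, which is needed for pancreas development in mice, had −0.43 ± 0.15 (DESeq2 adjusted p = 0.0236). Zfp410 had −0.35 ± 0.12 (adjusted p = 0.0247); it is an activator of Chd4, and Chd4 itself had a log2 fold change of −0.02 ± 0.08 (adjusted p = 0.928), a value whose sign turned with the recentring. Zfp740 and Zfp655 had −0.29 ± 0.11 each. Of the exonic bases of Zfp740, 24.9% lie opposite exons of Csad, as do 14.6% of Zfp703 opposite Gm45371 and 8.66% of Zfp410 opposite Gm47484, and strand is not given in the sources used here, so their reads cannot be told apart from those of the partner.

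**Figure D2:**
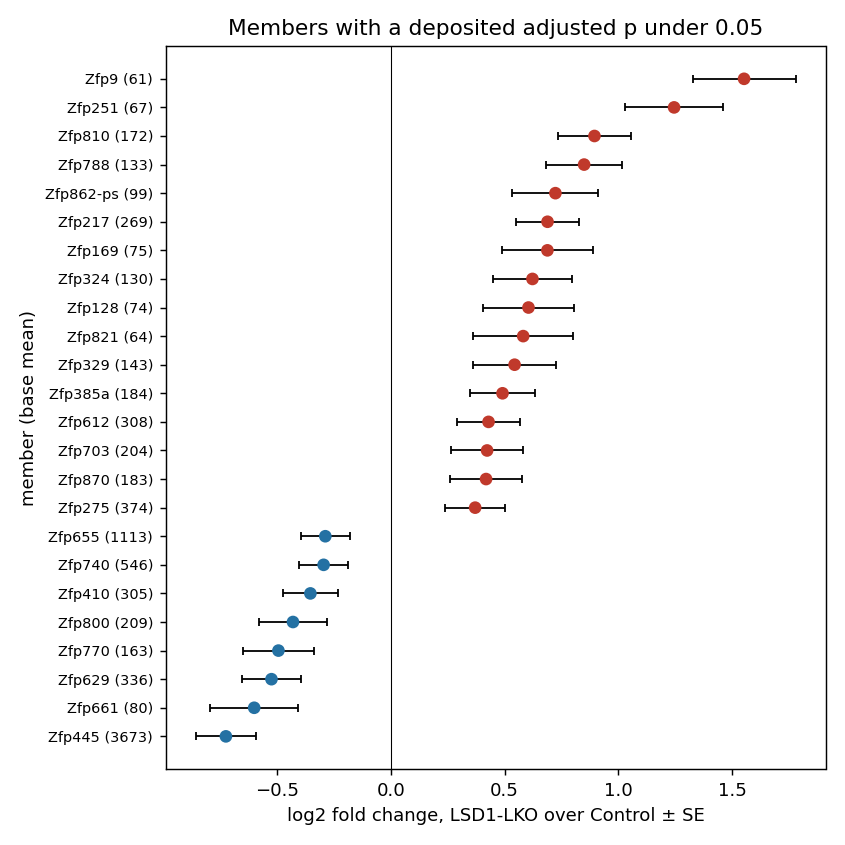
Log2 fold change of LSD1-LKO over Control ± SE for the 24 members called at an adjusted p under 0.05, with the base mean of each in brackets. The 16 red points were higher and the 8 blue points lower, and Zfp9 and Zfp251 lie beyond 1.

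Promoters are shown for the 2 highest and 2 lowest changed members that have a single RefSeq window, since these carry the largest changes for which such a sequence was at hand. RefSeq (GRCm38.p6) windows of 300 bases, 250 before to 50 after a transcript start, were found for 209 of the 251 members. Capitals mark matches on either strand to the GC box with the letters GGGCGG, to the CCAAT box, to the TATA box with the letters TATAAA, to the core of ETS factors such as GABP with the letters CCGGAAG, to a part of the NRF1 site, the same on both strands, with the letters TGCGCA, and to the YY1 core with the letters AAGATGG. No 2 of these motifs overlapped in the windows shown. The windows are chr9:22307589-22307888 (minus strand) for Zfp810, chr7:12965588-12965887 (plus strand) for Zfp324, chr9:122865957-122866256 (minus strand) for Zfp445 and chr2:114201383-114201682 (minus strand) for Zfp770. The Zfp445 window belongs to a start 20.8 kb inside the outer end of the gene as annotated.
Zfp810: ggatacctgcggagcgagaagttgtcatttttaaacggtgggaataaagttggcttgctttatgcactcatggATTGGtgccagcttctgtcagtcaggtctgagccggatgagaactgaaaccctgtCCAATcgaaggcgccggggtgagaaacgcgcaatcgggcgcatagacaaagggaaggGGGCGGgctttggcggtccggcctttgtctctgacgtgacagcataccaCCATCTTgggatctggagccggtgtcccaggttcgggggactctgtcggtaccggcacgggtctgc
Zfp324: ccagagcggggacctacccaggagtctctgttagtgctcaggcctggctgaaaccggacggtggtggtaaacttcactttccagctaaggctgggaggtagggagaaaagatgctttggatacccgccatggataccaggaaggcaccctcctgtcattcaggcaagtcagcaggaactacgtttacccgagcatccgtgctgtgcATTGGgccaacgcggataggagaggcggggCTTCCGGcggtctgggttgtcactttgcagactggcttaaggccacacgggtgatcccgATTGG
Zfp445: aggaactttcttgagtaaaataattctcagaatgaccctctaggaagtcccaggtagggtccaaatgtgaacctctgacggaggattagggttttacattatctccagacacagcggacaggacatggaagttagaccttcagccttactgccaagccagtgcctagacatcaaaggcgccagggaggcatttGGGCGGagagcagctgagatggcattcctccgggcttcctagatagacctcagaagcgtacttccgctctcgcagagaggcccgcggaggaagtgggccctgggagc
Zfp770: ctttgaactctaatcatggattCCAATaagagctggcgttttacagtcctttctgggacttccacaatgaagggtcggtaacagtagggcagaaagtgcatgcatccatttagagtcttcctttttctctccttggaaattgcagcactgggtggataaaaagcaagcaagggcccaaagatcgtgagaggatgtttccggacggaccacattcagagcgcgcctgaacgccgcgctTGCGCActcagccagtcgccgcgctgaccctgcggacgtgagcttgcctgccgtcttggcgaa

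The Zfp810 window held 2 CCAAT boxes, 1 GC box and 1 YY1 core, and the Zfp324 window held 2 CCAAT boxes and 1 ETS core. The Zfp445 window held 1 GC box and the Zfp770 window 1 CCAAT box and 1 NRF1 match. Over the 259 windows of members, 46.7% held a GC box, 47.5% a CCAAT box, 5.41% a TATA box and 19.3% an ETS core, against 35.7%, 37.4%, 13.6% and 8.86% of all 32851 windows. The NRF1 letters were in 26 of the 259 member windows and 7.76% of all windows, and the YY1 core in 8.11% and 6.34%. The 135 windows of members with a KRAB match came from 117 genes. In them the GC box (47 windows, 34.8%) and the NRF1 letters (8 windows, 5.93%) were near the shares of all windows. The CCAAT box (54.1%) and the ETS core (20.7%) were above the shares of all windows. All windows came from 27025 genes of any level, whereas members were chosen by level, so genes of like level were not compared. A match is a run of letters, not a site known to be bound.

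The domains of the members were read from the longest protein of each gene. Of 249 members with a protein, 241 had at least 1 C2H2 finger, and over all 249 the median was 10 and the maximum 36. A KRAB domain without SCAN was matched in 130 members, both in 3, SCAN alone in 7 and neither in 109. Of the 130 KRAB members, 9 were higher and 1 lower (7.69% called), and their median log2 fold change was 0.08. Of the 109 with neither domain, 6 were higher and 6 lower (11% called), with a median of −0.06. Both shares lay below the 18.2% of all genes tested, of which 12.3% were higher and 5.93% lower. The KRAB members had the lower median base mean, 123.1 against 272.7, and level moves with the direction of the calls, as given next. All 133 members with a KRAB match, with or without SCAN, had 9 higher and 2 lower. Their median log2 fold change was 0.13, against 0.13 for members without a match, at base means of 50 to 100. It was 0.09 against 0.01 at 100 to 200 and −0.04 against −0.10 at 200 to 500. At 500 or above it was 0.06 against −0.10, in 6 and 20 members. The part of level was not tested. None of the 7 SCAN-only members was called.

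**Figure D3:**
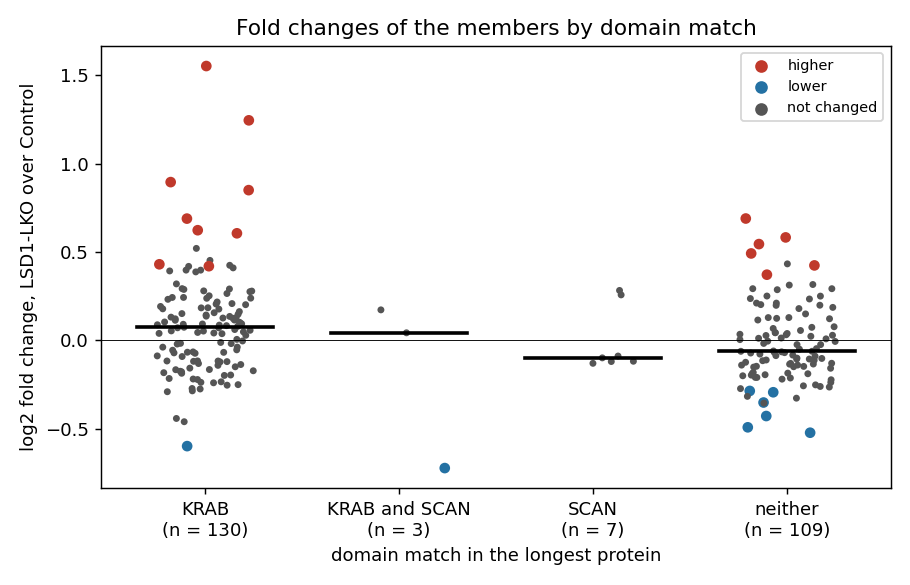
Log2 fold change of LSD1-LKO over Control for 249 members with a protein, grouped by domain match; each point is a gene, the bar is the median, red is higher and blue lower. KRAB members have 9 red points and 1 blue point, and members with neither domain have 6 of each.

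Level was set beside the calls because the direction of calls moves with it. The share called moves less, and lay between 18.9% and 23.6% of all genes tested at the levels given here. Among members with a base mean of 50 to 100, 6 were higher and 1 lower of 62, and among all genes tested at that level 236 were higher and 19 lower of 1288. Between 100 and 200, 6 members were higher and 1 lower of 80, against 262 higher and 58 lower of 1692 genes. Between 200 and 500, 4 members were higher and 3 lower of 83, against 379 higher and 165 lower of 2873 genes. Of the 26 members at 500 or above, 0 were higher and 3 were lower (Zfp445, Zfp655 and Zfp740), against 538 higher and 580 lower of 4743 genes. The share called was lower in members than in all genes tested at each of these levels, a difference that was not tested.

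**Figure D4:**
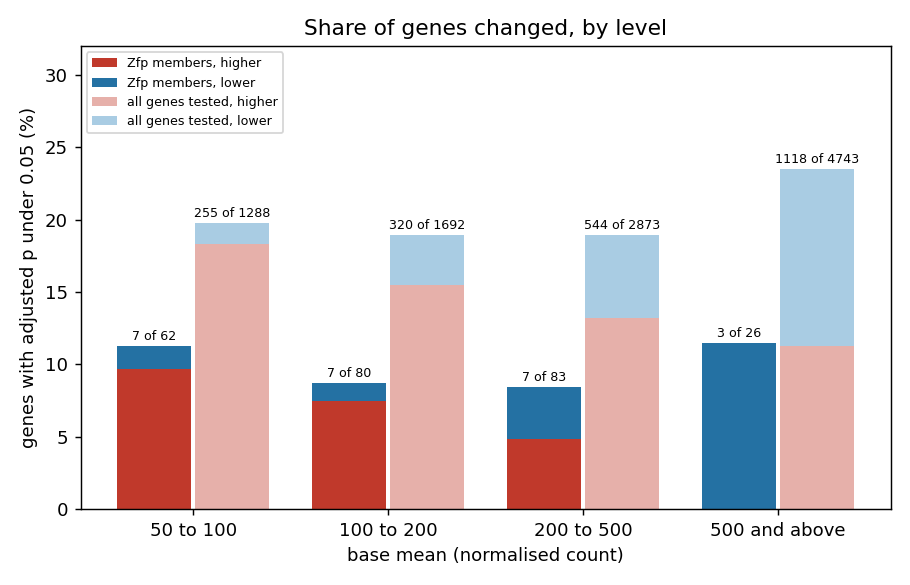
Share of genes with an adjusted p under 0.05, split into higher and lower, for members (left bar of each pair) and all genes tested (right bar) by base mean. The counts above the bars run from 7 of 62 to 3 of 26 for members, and in each bin the bar of the members is the shorter.

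Of a list of 32 Zfp genes with well-studied roles, 3 were higher (Zfp217, Zfp703 and Zfp90, which lies below the level of the members) and 1, Zfp445, was lower, or 12.5% against 18.2% of all genes tested. The AU-rich element binding proteins Zfp36 and Zfp36l1 had log2 fold changes of −0.24 ± 0.12 and 0.12 ± 0.13, and Zfp36l2 of 0.02 ± 0.15, none called by DESeq2 (adjusted p = 0.191, 0.609 and 0.955). Zfp598, the ubiquitin ligase that senses collided ribosomes, had −0.27 ± 0.10 (adjusted p = 0.0515). Zfp91, an E3 ubiquitin ligase, had −0.12 ± 0.08, and Zfp207, which acts at spindle microtubules, had −0.05 ± 0.10. The RNA-binding proteins Zfp106 and Zfp638 had 0.04 ± 0.08 and 0.08 ± 0.10. Zfp809, which silences retroviral DNA in mouse embryonic cells, had 0.09 ± 0.18, and Zfp568, a KRAB repressor of a placental Igf2 transcript, had 0.09 ± 0.13. Zfp467 had −0.27 ± 0.13 (adjusted p = 0.141).

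After Zfp445, the highest base means were those of Zfp871 (2425), Zfp106 (2226), Zfp91 (2012), Zfp36l1 (1910), Zfp706 (1428), Zfp36 (1298), Zfp970 (1286), Zfp207 (1146) and Zfp655 (1113), and of these 9 only Zfp655 was called. Zfp970 had an SE of 0.25, against a median SE of 0.11 for members at 500 or above, and it shares 52.2% of its 50-base stretches with other transcripts, so its counts are uncertain. In all, 7 members shared over 50% of such stretches and 0 of them were called, while the highest share among changed members was 1.35%.

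Members lie in runs, here members of a chromosome with under 500 kb between neighbours. There were 34 runs of 2 or more, holding 157 members, with 55 members on chromosome 7 and 38 on chromosome 17. In the run of 6 on chromosome 7 from 12478280 to 12985717, Zfp329, Zfp128 and Zfp324 were higher, and Zfp606, Zfp110 and Zfp446 were not called. On chromosome 8, Zfp821 and Zfp612, a run of 2 over 397.5 kb with other tested genes between them, were both higher. The runs of 16 on chromosome 13 and of 18 on chromosome 17 had 0 called. Of 13 runs of 4 or more, 9 had no called member, and these 9 hold 71 members. Among all members 9.56% were called, and among all genes tested 18.2%. Of the 46 members that share 10% or more of their 50-base stretches, 0 were called, against 24 of 204 below that. The part of shared sequence in the runs was not tested.

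Some changed members had changed neighbours below the level of 50, both Zfp genes and others. Zfp248, 6.25 kb from Zfp9, had a base mean of 21.6 and a log2 fold change of 1.44 ± 0.27 (DESeq2 adjusted p = 2.66e-06). Zfp599, 16.8 kb from Zfp810, had a base mean of 22.6 and 1.87 ± 0.27 (adjusted p = 2.93e-10), while Zfp809, 22.6 kb from Zfp810, was not called. Zfp7, 7.82 kb from Zfp251, is itself a member, with a base mean of 50.8. It was not called, at 0.52 ± 0.22 (DESeq2 adjusted p = 0.0926), and 17.2% of its 50-base stretches are shared. The called neighbours 9530077C05Rik and 1810064F22Rik of Zfp810 and Ptpdc1 of Zfp169, all with base means below 50, had 1.32, 0.83 and 1.14. Neighbours above 50 included Atp6v0e2, 2.74 kb from Zfp862-ps, with 3.84, and Grm8 with 2.67 beside Zfp800, which was lower. Leaving out the changed members themselves, 170 tested genes lay within 200 kb of the 24, of which 19 were higher and 14 lower, or 19.4%, near the 18.2% of all genes tested.

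**Figure D5:**
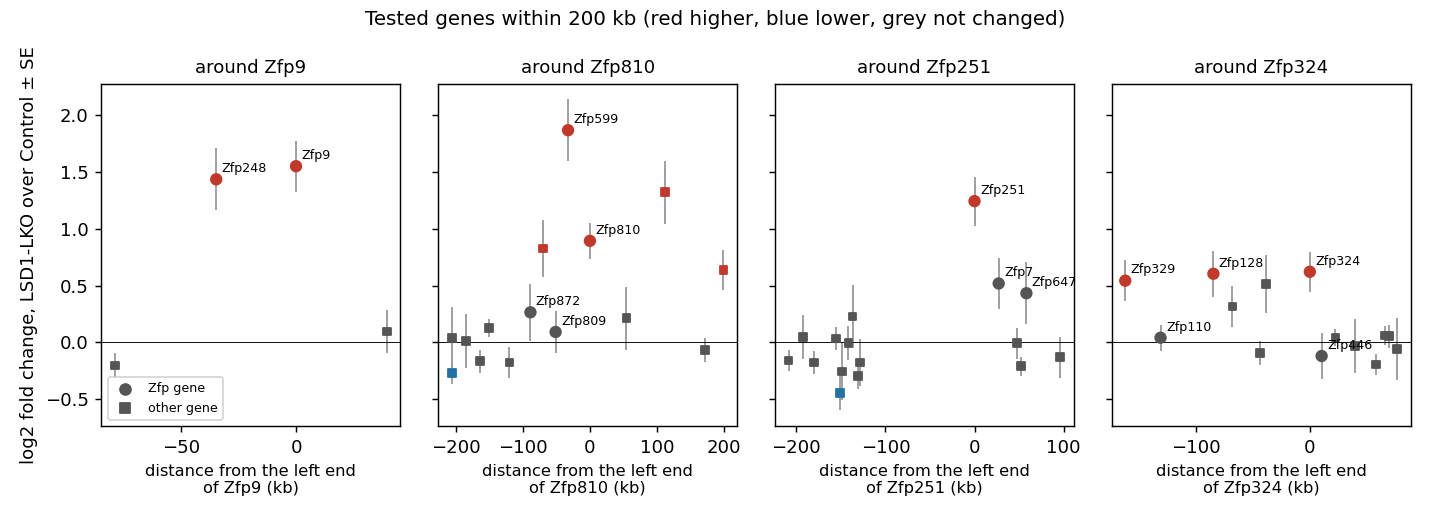
Log2 fold change of LSD1-LKO over Control ± SE for tested genes within 200 kb of Zfp9, Zfp810, Zfp251 and Zfp324, by distance from the left end of that gene; circles are Zfp genes, squares other genes, red higher, blue lower. Zfp248 stands beside Zfp9 at 1.44 and Zfp599 beside Zfp810 at 1.87, and Zfp329 and Zfp128 are red beside Zfp324.

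Partners of the members were described by lists. Of 20 tested genes of the KRAB corepressor machinery, 0 were higher and 2 were lower: Chd3, a chromatin remodeller, with a log2 fold change of −0.42 ± 0.08 (DESeq2 adjusted p = 7.79e-06), and Cbx5, which encodes HP1 alpha, with −0.33 ± 0.09 (adjusted p = 0.00321). Trim28 had −0.19 ± 0.09 (adjusted p = 0.147) and Setdb1 −0.20 ± 0.11 (adjusted p = 0.218). Of the 20 genes, 12 had log2 fold changes below 0 and 8 above, with a highest value of 0.55. Of 23 tested genes of CCR4-NOT and mRNA decapping, Btg2 was higher at 0.49 ± 0.18 and Cnot6, a deadenylase, lower at −0.37 ± 0.13. The median log2 fold changes of these lists were −0.03, which turned to 0.01 after the recentring, and −0.06. The background of all genes tested was 18.2% called, 12.3% higher and 5.93% lower.

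Around the level that set the members, those just inside were Zfp455 (50.1), Zfp108 (50.2), Zfp97 (50.7) and Zfp560 (50.7), with log2 fold changes of 0.41, 0.26, 0.20 and −0.20. Those just outside were Zfp273 (48.7), Zfp81 (48.7), Zfp984 (46.9) and Zfp59 (46.5), with −0.22, −0.09, 0.47 and −0.17. None of these 8 genes was called.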

How the data were processed

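RNA-seq was run on livers of 3 LSD1-LKO and 3 Control mice. Per the labels and the methods, reads were mapped to mm10 with STAR and processed with StringTie, and the groups were compared with DESeq2, as the authors describe it. Tool versions, annotation, strand and multi-mapping were not given in the sources used here. That comparison is what the authors deposited: base mean is a signal the authors made by averaging counts over size factors, the log2 fold change and its SE were deposited as DESeq2 gave them, the Wald column they deposited is a score that matched the ratio of both (largest difference 1.28e-13), and the deposited p-values are raw and Benjamini-Hochberg adjusted. These columns of the authors' own comparison were used because the table has no others; 0 columns per sample were left unused. No count test could be run, depth per liver is unknown, and replicate spread is known only through the SE. Shrinkage was seen in the folds, whose size was at most 0.101 where the base mean was under 0.5.

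Tested genes had an adjusted p (base mean from 3.45). The members, lists and named genes were chosen with earlier results of these data known. Named members were the 12 highest and 12 lowest among those changed, which are all 24, the 10 of highest base mean, 4 on each side of the level of 50, a list with textbook roles, Kdm1a and changed list genes; Zfp7, Zfp938, the neighbours, the markers and the changed genes of other families were named after their values were seen. Of 5885 rows without a symbol, RefSeq names 23 Zfp, with base means up to 3.21, so none would be a member. The 95% intervals are 1.96 SE either way. Fingers and domains were pattern matches in proteins translated from GENCODE vM21 transcripts: KRAB needed 10 of 20 letters and SCAN 20 of 34, and 4 members scored 8 to 12 for KRAB; these cutoffs were set after the scores were seen, since a stricter pattern had missed many. Shared stretches are runs of 50 bases found in transcripts of another gene. Positions are from RefSeq GRCm38.p6, the assembly behind mm10. Analyses used Python 3.11.15, pandas 2.3.3, scipy 1.17.1 and Biopython 1.88; the recentring step was checked on simulated data. Alternatives were other adjustments, thresholds, a recentring and other minimum levels.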

Additional observations from a re-analysis of the deposited data

How the results depend on the processing

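The counts of 16 higher and 8 lower members moved with the threshold. At an adjusted p under 0.01, 9 of the 251 members were higher and 2 lower, against 1357 and 463 of the 14257 genes tested. At an unadjusted p under 0.05, 26 members were higher and 17 lower, against 2353 and 1634 of all genes tested. Starting at a base mean of 20 gave 25 higher, and starting at 100 gave 10. The number of genes counted also changes with that level, and no share of all genes is set beside these counts. They therefore do not show a change in the share called. After recentring on the median of genes with a base mean of at least 200, a shift of −0.04, 21 were higher and 5 lower; Zfp410, Zfp655 and Zfp740 were no longer called, at adjusted p = 0.0587, 0.109 and 0.0916. That recentring called 1994 of all genes tested higher and 573 lower. It raised the higher share of all calls to 77.7%, against 67.5% in the deposited table, and a threshold of 0.01 gave 74.6%. Adjusting over every p without a filter gave 13 higher and 7 lower, losing Zfp655, Zfp703, Zfp821 and Zfp870, against 1669 and 757 of all genes. Adjusting over genes with a base mean of at least 50 gave 17 and 9, adding Zfp938 and Zfp598, against 1456 and 874 of all genes so adjusted. The median log2 fold change of members was 0.06 after recentring, 0.04 from a base mean of 20 and −0.02 from 100. Of the named genes, Chd4, which was not called, changed direction, to 0.0253 after recentring (adjusted p = 0.904).

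No paired analysis was possible because the table has no value per liver. For the same reason leaving out each liver, the replicate block and a second tool were not run, and whether 1 liver decides a call cannot be seen.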

Other observations

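Zfp genes below the level of 50 were called about as often as other genes of that level. Of 98 tested, 9 were higher and 0 lower at a DESeq2 adjusted p under 0.05, against 13 higher and 0 lower at an unadjusted p under 0.05, and their median log2 fold change was 0.18. Of all 3661 genes tested below 50, 9.26% were higher and 0.656% lower, so the 9.18% of these Zfp genes that were higher is near the background. The 9 were Zfp599 (1.87), Zfp248 (1.44), Zfp52 (1.12), Zfp13 (1.10), Zfp995 (0.89), Zfp30 (0.79), Zfp941 (0.78), Zfp90 (0.68) and Zfp334 (0.62), given as log2 fold changes. All 9 matched the KRAB pattern, which was found in 64 of the 98, and 0 of the 28 with a protein and no KRAB match were called.

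In other zinc finger families the share called was 7.5% for Zbtb, 5.56% for Zscan and Zkscan, 11.1% for Zc3h and 15.4% for Klf. Among all genes tested 18.2% were called, 12.3% higher and 5.93% lower. These families hold only 13 to 40 tested genes, so a few calls move each share, and the differences were not tested. Of 40 tested Zbtb genes, 2 were higher (Zbtb4 and Zbtb42) and 1 lower (Zbtb18). Of 18 Zscan and Zkscan genes, 0 were higher and 1, Zkscan7, was lower. Of 18 Zc3h genes, 2 were higher (Zc3h12d and Zc3hav1) and 0 lower. Of 13 Klf genes, 0 were higher and 2 lower: Klf15, a regulator of gluconeogenesis and amino acid breakdown, with a log2 fold change of −0.34 ± 0.10, and Klf3 with −0.33 ± 0.10.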
